A study of Mus musculus with 10 samples.

Results

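The genes described here encode the Wnt ligands, their receptors and the secreted proteins that modulate them, 43 of the 21938 mouse protein-coding genes on chromosomes 1 to 19, X and Y. They were taken by name: 19 Wnt ligands, 10 Frizzled receptors, 6 genes for co-receptors, other receptors and the ligand carrier Wls, and 8 secreted modulators of the Sfrp and Dkk families. The measurement was chromatin immunoprecipitation with sequencing (ChIP-seq) for AHR, the aryl hydrocarbon receptor, a ligand-activated transcription factor, in mouse colon organoids, which are epithelial cultures grown from colon. Wild type (WT) organoids gave 4 immunoprecipitated samples and 4 inputs, and AHR KO organoids gave 1 immunoprecipitated sample and 1 input. All cultures of both genotypes were grown in WENR, the stem cell condition, a medium that carries added Wnt and R-spondin, and all received 5 nM FICZ, a high-affinity AHR ligand, for 1 hour. The labels give the KO genotype as AHR KO and name no allele.

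There was 1 peak list per genotype, so the values here are the positions and scores of called peaks. The WT list held 123652 peaks for all WT cultures together, with no value for any single culture, and the AHR KO list held 1931 peaks. Each score is the fold enrichment of the immunoprecipitated pileup over the local background, and peaks were assigned to a gene when they overlapped its body or the 10 kb on either side by at least 1 bp. No spread between cultures could be computed and no test between the genotypes was made, and the intervals given are 95% Wilson intervals that cover counting error only. In the WT list 51.6% of scores fell on a ladder with steps of 0.332. Since MACS2 adds 1 to both the pileup and the background, that is the size of 1 fragment at a background of 2.01 fragments, and the median peak on the ladder held 16 fragments. The KO ladder, which held 17.2% of the KO scores, had steps of 0.777, which corresponds in the same way to a background of 0.287 fragments, with a median of 8 fragments for the peaks on it. By these peaks the depths of the lists differed, and their scores were not compared. Of the 128 peaks described below, 64 fell on the WT ladder, with 12 fragments at the lowest and a median of 15. For peaks on this ladder a difference of 0.33 is 1 fragment, while the other 64 have another local background.

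Wnt ligands are lipid-modified secreted proteins that Wls carries to the cell surface. They bind Frizzled receptors together with the co-receptors Lrp5 and Lrp6, which stabilises β-catenin, or act through Ror and Ryk receptors in branches that do not need β-catenin. Sfrp proteins bind the ligands, and most Dkk proteins bind Lrp5 and Lrp6, and both families limit the signal. In the colon this pathway maintains the stem cells at the crypt base.

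The sequences at the peaks are shown first, because the results below turn on what they hold. All are windows of 200 bases around a WT peak's midpoint, forward strand, genome build GRCm38 (mm10). The AHR motif word searched was TNGCGTG, on both strands, where N is any base. The word was present in 3 of the 128 windows at these genes, and those 3 windows are printed with the word in capitals (its reverse complement reads CACGCAA in the first 2). The windows lie at chr6:91398861-91399060 in an intron of Wnt7a, chr14:65214690-65214889 in an intron of Fzd3 and chr8:23414019-23414218 in an intron of Sfrp1.
Wnt7a: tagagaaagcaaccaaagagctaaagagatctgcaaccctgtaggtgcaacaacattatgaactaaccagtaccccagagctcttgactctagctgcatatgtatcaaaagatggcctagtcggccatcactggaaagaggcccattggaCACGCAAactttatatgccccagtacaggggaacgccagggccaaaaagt
Fzd3: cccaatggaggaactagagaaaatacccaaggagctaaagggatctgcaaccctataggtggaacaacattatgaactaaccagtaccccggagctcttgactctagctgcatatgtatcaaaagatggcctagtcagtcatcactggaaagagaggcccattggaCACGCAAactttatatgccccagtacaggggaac
Sfrp1: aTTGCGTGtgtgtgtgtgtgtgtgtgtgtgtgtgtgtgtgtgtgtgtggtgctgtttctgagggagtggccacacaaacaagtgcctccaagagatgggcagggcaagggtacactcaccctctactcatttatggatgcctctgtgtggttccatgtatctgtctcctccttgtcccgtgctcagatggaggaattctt

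The Wnt7a and Fzd3 windows, on different chromosomes, were 93.5% identical over 186 aligned columns, with 174 identities, 10 mismatches and 2 gap columns. In Sfrp1 the motif word opens a run of TG pairs. The window with the most copies of the shorter core word GCGTG was at Sfrp2, chr3:83770434-83770633 in an intron, where 5 copies (capitals, read as CACGC on this strand, some overlapping by 1 base) flank a run of CA pairs.
Sfrp2: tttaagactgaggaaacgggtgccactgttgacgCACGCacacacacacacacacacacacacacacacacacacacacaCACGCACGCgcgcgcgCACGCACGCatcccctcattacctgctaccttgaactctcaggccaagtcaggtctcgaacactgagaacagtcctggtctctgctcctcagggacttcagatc

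The last 2 windows came from peaks at promoters. They lie at chr14:28503593-28503792 upstream of Wnt5a and at chr9:102845161-102845360 inside Ryk, before an internal transcript start, with the longest uninterrupted run of alternating T and G in capitals, 20 bp and 39 bp long.
Wnt5a: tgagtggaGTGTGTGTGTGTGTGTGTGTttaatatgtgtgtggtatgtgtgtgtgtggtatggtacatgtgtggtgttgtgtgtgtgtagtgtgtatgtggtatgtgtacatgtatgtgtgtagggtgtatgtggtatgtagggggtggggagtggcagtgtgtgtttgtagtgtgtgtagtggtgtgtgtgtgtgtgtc
Ryk: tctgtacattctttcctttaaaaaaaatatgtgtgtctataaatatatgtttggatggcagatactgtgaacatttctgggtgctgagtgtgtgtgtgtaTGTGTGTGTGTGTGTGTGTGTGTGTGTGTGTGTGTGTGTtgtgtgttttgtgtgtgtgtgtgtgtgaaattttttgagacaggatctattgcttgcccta

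A WT peak was present at 35 of the 43 genes, 81.4% (95% interval 67.4 to 90.3%). The background over the other 21895 protein-coding genes was 78.3%, and it was 79.4% over genes of similar length, the 200 genes nearest in length to each member. The Wnt genes were thus called about as often as other genes of their size. The 35 genes held 128 distinct peaks, 1 of which was assigned to both Wnt6 and Wnt10a, neighbours on chromosome 1. Peak density was 4.84 per 100 kb searched against 4.53 for the other genes, a ratio of 1.07 with a counting interval from 0.892 to 1.27. Longer members had more peaks, with a Spearman coefficient of 0.73 between gene length and number of peaks across the 43 genes and 0.60 across the other genes, and genes are not independent replicates.

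**Figure D1:**
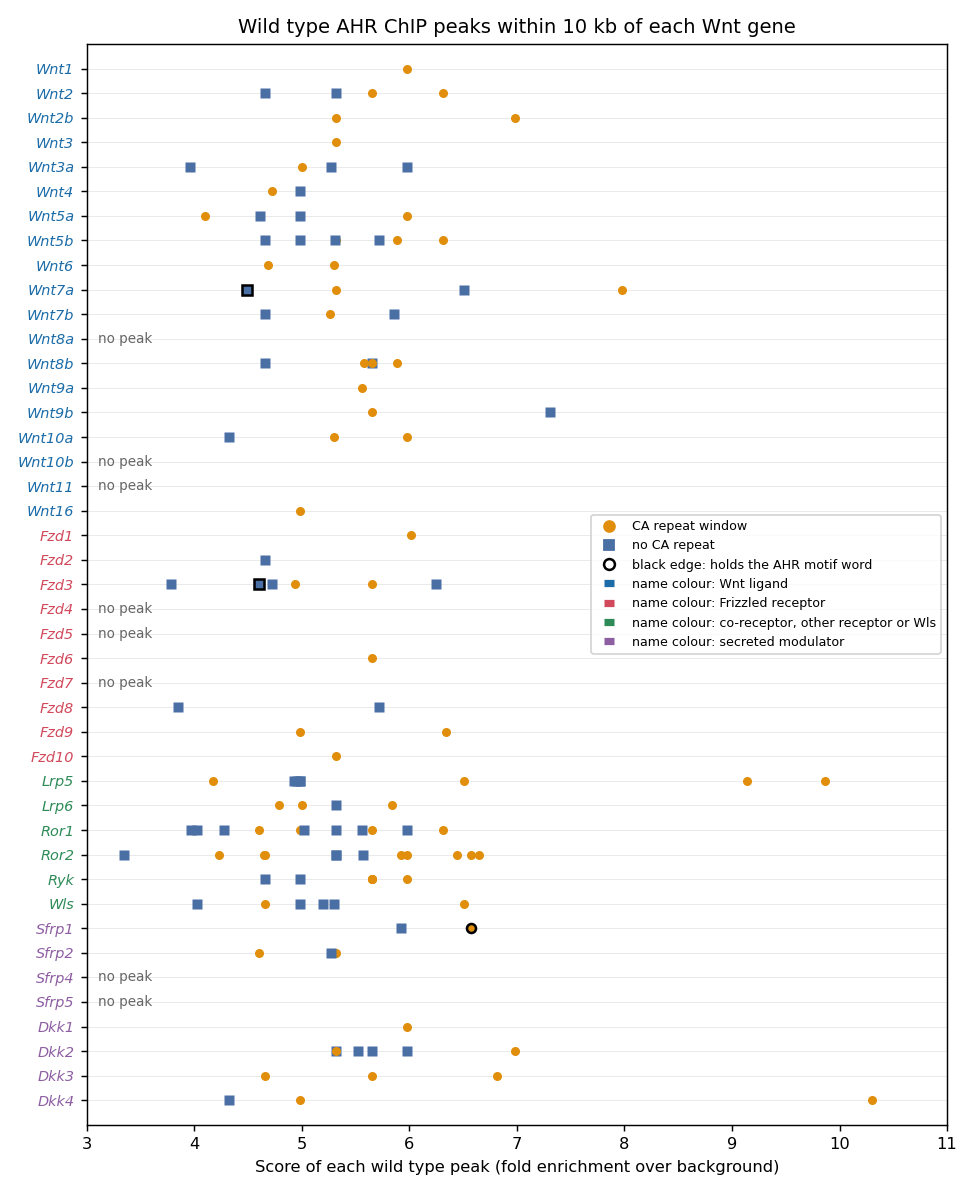
Score of every WT peak (fold enrichment, x axis) within 10 kb of each of the 43 genes (rows), with circles for windows that hold a CA repeat, squares for those that do not, and a black edge for the 3 windows that hold the AHR motif word. Most peaks lie between scores of 4 and 7, only Dkk4, Lrp5, Wnt7a and Wnt9b have a peak above 7, and 8 rows are empty.

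Among the ligands, 16 of 19 had a WT peak, 84.2% against 80.9% of genes of similar length, with best scores from 4.98 to 7.97 and a median of 5.98. The highest was at Wnt7a, whose product signals with the partner proteins Reck and Gpr124: a peak of score 7.97 at chr6:91375602-91375897, 296 bp wide, in an intron 10652 bp from the nearest transcript start. This window was 81.5% soft-masked, meaning annotated as repeat in the genome sequence, and held a CA repeat, here 3 or more copies, not overlapping, of CACACA or of TGTGTG. The other 3 peaks of Wnt7a scored 6.51, 5.32 and 4.49, and the lowest of them is the motif window printed above.

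Wnt9b, which acts in kidney tubule formation, came next among the ligands with a peak of score 7.31 at chr11:103754710-103754930, centred 4999 bp upstream of its start. That window was 97.0% soft-masked and held no CA repeat. It holds a CCCT run instead, the 20-base word ccctccctccctccctccct, which was also present in windows of Wnt3a, Wnt5a, Wnt5b and Wnt7b. That word was in 1.33% of all WT windows. Wnt2b, a ligand of the gut mesenchyme, followed with a best score of 6.98 at a CA repeat 5285 bp upstream. Best scores at Wnt2 and Wnt5b were both 6.31.

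A best score of 5.98, the same step of the ladder, was shared by 4 ligands. These were Wnt1 and Wnt3a, both potent activators of β-catenin, Wnt10a, and Wnt5a, the main ligand of the Ror branch. Wnt5a had 4 peaks, at 5.98, 4.98, 4.61 and 4.10, and the strongest is the promoter window printed above. Wnt3a also had 4, at 5.98, 5.27, 5.00 and 3.96. The remaining ligands had best scores of 5.89 for Wnt8b, 5.86 for Wnt7b, 5.56 for Wnt9a, 5.32 for Wnt3, a ligand that Paneth cells make in the small intestine, 5.30 for Wnt6 and 4.98 for both Wnt4 and Wnt16. From Wnt7a down, neighbours in this order lie no more than 2 steps of the ladder apart in score, and no replicate error is available to order them.

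Wnt8a, Wnt10b and Wnt11 had no WT peak in the searched interval. The nearest one to Wnt11, a ligand of the branches that do not need β-catenin, was 11.6 kb from the gene body with a score of 6.25. For Wnt10b it was 14.3 kb away with a score of 5.27, and for Wnt8a 14.9 kb away with a score of 6.90. Each absence thus depended on the 10 kb limit.

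The Frizzled receptors had the lowest median best score of the 4 roles, and they are also short genes. A WT peak was present at 7 of the 10, and 68.6% of genes of their lengths had one. Best scores ran from 4.65 at Fzd2 to 6.34 at Fzd9, with a median of 5.71, which put 5 of the 10 above the median of genes of similar length. A peak in the top 10% of WT scores was present at 0 of 10 (Wilson interval up to 27.8%), against 14.4% of genes of similar length. The Fzd9 peak, at chr5:135252685-135252897 and 213 bp wide, was centred 1561 bp upstream of the start, and its window was 48.5% soft-masked and held a CA run of 79 bp, the longest at any of the 43 genes. Fzd9 is 2293 bp long, and 85.5% of genes of similar length had a lower best score.

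Fzd3, a receptor needed for axon guidance and planar cell polarity, had the most peaks of the family. Its 6 peaks scored 6.25, 5.65, 4.93, 4.72, 4.60 and 3.78, all but 1 in introns. A stronger peak, at 7.31, lay 10095 bp from its gene body and so just outside the limit. Fzd1 had 1 peak at 6.02, Fzd6 1 at 5.65, Fzd10 1 at 5.32 and Fzd2 1 at 4.65, while Fzd8 had 2 at 5.71 and 3.85.

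Fzd4, Fzd5 and Fzd7 had no WT peak. Fzd5 and Fzd7 are Frizzled receptors with known functions in the intestinal epithelium, Fzd7 in its stem cells. The nearest peak lay 14.2 kb from Fzd5 with a score of 5.65, 11.8 kb from Fzd7 with a score of 4.32, and 11.8 kb from Fzd4, which is also the receptor for Norrin, with a score of 4.65. All 3 genes are shorter than 10 kb.

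The co-receptors, other receptors and Wls are long genes, from 73.4 to 349 kb, and all 6 had at least 4 WT peaks. Of genes of their lengths 98.1% had a peak, so the count carries little. Their best scores ran from 5.84 to 9.87, and only Lrp5 was above the median of genes of similar length. Lrp5, a co-receptor that binds the ligand together with Frizzled, had 8 peaks, at 9.87, 9.13, 6.51, 4.98, 4.98, 4.96, 4.92 and 4.17. Its 2 strongest stood apart from the other 6. The strongest, at chr19:3634203-3634819, was 617 bp wide and lay in an intron, and the other, at chr19:3595787-3596444, was 658 bp wide and overlapped a UTR exon. Both windows were fully soft-masked and held CA repeats. A best score of 9.87 exceeded that of 90.5% of genes of similar length.

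Lrp6, the paralogue of Lrp5, had 4 peaks between 4.79 and 5.84, none of which reached even the third-ranked score of Lrp5. Ror1 and Ror2, the tyrosine-kinase-like receptors for Wnt5a, had the most peaks, 15 and 12. Their best scores were 6.31 and 6.65, and Ror1, the longest member at 349 kb, scored higher than only 6.0% of genes of its length. Ryk, another receptor for Wnt ligands, had 6 peaks with a best score of 5.98. Wls had 6 peaks, at 6.51, 5.30, 5.20, 4.98, 4.65 and 4.03, and the strongest was a CA repeat in an intron 1510 bp from the nearest transcript start, 37.5% soft-masked.

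**Figure D2:**
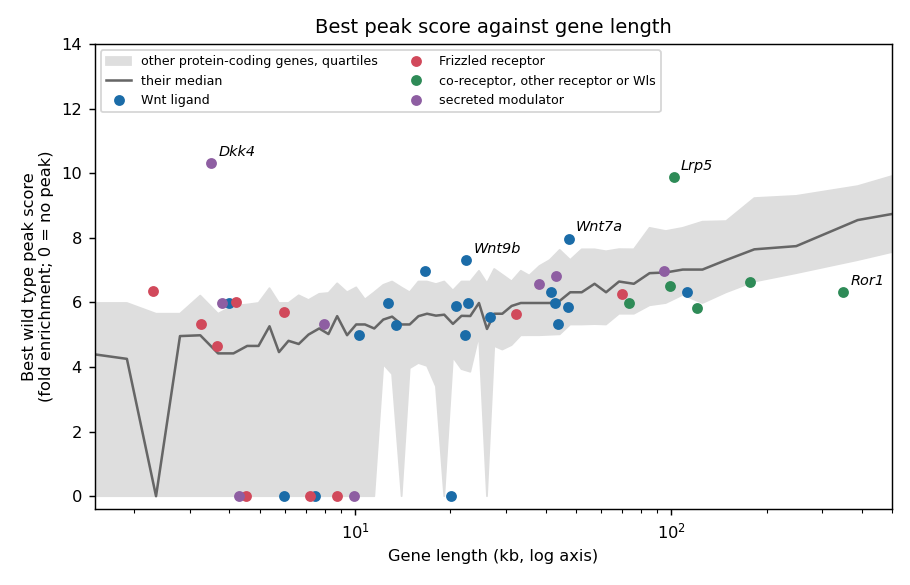
Best WT peak score (fold enrichment, 0 where a gene has no peak) against gene length in kb on a log axis for the 43 genes, coloured by role, over the median and quartiles of the other protein-coding genes in bins of length. Dkk4, Lrp5, Wnt7a and Wnt9b are among the genes above the grey band, Ror1 is among those below it, and the 8 genes without a peak sit at 0.

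The secreted modulators included the strongest peak of the set. A WT peak was present at 6 of 8, against 75.4% of genes of similar length, and best scores ran from 5.32 to 10.3 with a median of 6.70. Dkk4, an Lrp5 and Lrp6 antagonist induced by Wnt signalling, had 3 peaks, at 10.3, 4.98 and 4.32. The strongest was 571 bp wide, ranked 1061 in the WT list and lay downstream of the 3505 bp gene. It was fully soft-masked and held a CA repeat, and 96.0% of genes of similar length had a lower best score. The other 2 Dkk4 peaks lay in the lower part of the range of all member peaks.

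The other Dkk genes scored between these values. Dkk2 had 6 peaks with the best at 6.98 in an intron, Dkk3, a divergent family member, had 3 with the best at 6.82, and Dkk1, an Lrp5 and Lrp6 antagonist, had 1 at 5.98. Sfrp1 had 2 peaks, at 6.58 and 5.92. The stronger Sfrp1 peak, at chr8:23413932-23414305, was the motif window printed above and was 28.5% soft-masked. Sfrp2 had 3 peaks, at 5.32, 5.27 and 4.60, and the best of them is the printed window with 5 core words and 12 CpG pairs. Sfrp4 and Sfrp5 had no WT peak, and the nearest lay 32.9 kb and 42.4 kb from them, with scores of 3.85 and 4.57. These were the longest such distances among the 8 genes without a peak.

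High scores were found at few of the Wnt genes. A peak in the top 10% of WT scores, at 7.14 or more, was present at 4 of the 43 genes, 9.30% (interval 3.68 to 21.6%), while the background over the other protein-coding genes was 23.0% and over genes of similar length 23.4%. The 4 genes were Wnt7a, Wnt9b, Lrp5 and Dkk4, with 5 such peaks in all. By peak, 5 of 128 (3.91%, interval 1.68 to 8.82%) were in the top 10%, against 11.1% of peaks at the other genes. The median score was the same, 5.32, in both sets, with quartiles of 4.89 and 5.93 at the Wnt genes and 4.65 and 6.25 elsewhere, so the member scores spread less on both sides.

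Raising the score limit showed where the sets parted. At 5 or more, 74.4% of the Wnt genes and 64.8% of genes of similar length had a peak. At 6 or more the shares were 37.2% and 42.5%. At 7 or more they were 9.30% and 24.1%, where, as for the top 10%, the value for genes of similar length lay outside the members' interval. At 8 or more they were 4.65% and 13.3%, at 9 or more 4.65% and 7.29%, and at 10 or more 2.33% and 3.64%. At each of these other limits the value for genes of similar length lay within the members' interval. The limits were chosen after the scores had been seen, and the members were not drawn at random, so these shares are a description.

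**Figure D3:**
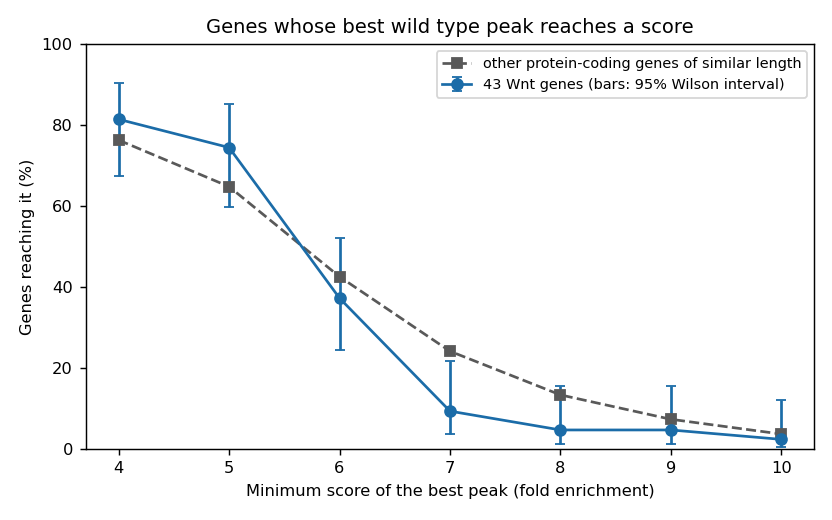
Share of genes (%) whose best WT peak reaches a given score (fold enrichment) for the 43 Wnt genes, with 95% Wilson intervals as bars, and for other protein-coding genes of similar length. The member line is higher at scores of 4 and 5 and lower from 6 onwards, with 9.30% against 24.1% at 7.

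The nearest transcript start was the member's own for 29 of the 35 best peaks, and the same share was not computed for other genes. The exceptions were Wnt1 (nearest Ddn), Wnt3a (Arf1), Wnt5b (Fbxl14), Wnt6 (Wnt10a), Wnt7b (7530416G11Rik) and Ror2 (Nfil3).

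Taken gene by gene, best scores lay on both sides of the median of genes of similar length, although few reached the high score limits above. A best score above the median of its own 200 similar genes was found for 19 of 43 (44.2%, interval 30.4 to 58.9%). Ranked by the percentage of similar genes with a lower best score, 11, 13, 12 and 7 members fell in 4 equal ranges of that percentage from lowest to highest. The members without a peak all fell in the lowest range, because no gene can score lower than they do, and equal scores also lower the percentage. By role the counts above the median were 7 of 19 ligands, 5 of 10 Frizzled receptors, 1 of 6 co-receptors, other receptors and Wls, and 6 of 8 secreted modulators. A score equal to the median counted as not above it. The share of other genes above their own median was not computed, so these counts have no background beside them.

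Peaks at promoters, taken as 1 kb before to 100 bp after a transcript start, were found at 3 of the 43 genes, 6.98% (interval 2.40 to 18.6%), with a background of 10.7% over the other genes and 10.8% over genes of similar length. At Wnt5a the peak, chr14:28503560-28503824, scored 5.98 and was centred 1058 bp upstream of the gene's start. At Wnt10a, chr1:74792636-74792944, it scored 5.30 and lay inside the gene, centred 573 bp before an internal transcript start, and this is the peak that also fell within 10 kb of Wnt6. At Ryk, chr9:102845147-102845373, it scored 5.65 and also lay inside the gene, centred 573 bp before an internal transcript start. All 3 windows held CA repeats, as the printed Wnt5a and Ryk sequences show. Most member peaks lay elsewhere: 81 of 129 peak and gene pairs were intronic, 27 were upstream beyond the promoter and 16 downstream. By midpoint, 65.9% of pairs lay in the gene body, 21.7% upstream and 12.4% downstream, against 68.1%, 16.8% and 15.1% at the other genes. The gene body made up 67.8% of the sequence searched at the Wnt genes and 71.0% at the others.

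The AHR motif word was found at few of the Wnt genes, at a share close to the background but with a wide interval. It was found at 3 of 43 genes, 6.98% (interval 2.40 to 18.6%), with a background of 6.74% and 6.06% over genes of similar length. In gene bodies alone the shares were 6.98% and, for genes of similar length, 3.85%. The 3 peaks scored 6.58 at Sfrp1, 4.60 at Fzd3 and 4.49 at Wnt7a, so the word was absent from the strongest windows of Dkk4, Lrp5 and Wnt9b. In all 3 windows the 7 bases of the word were themselves soft-masked. The word of Wnt7a and Fzd3 lies within a 20-base stretch, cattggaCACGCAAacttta, that both share. That stretch was present in 1324 of 123366 WT windows (1.07%) and in 37.8% of the 3507 WT windows with the motif word, near 438 protein-coding genes, with a median score of 4.49. In the KO list 5 of 1873 windows held it. The core word GCGTG was in 26 of 128 member windows (20.3%) and in 20.4% of windows at other genes, and 19 of the 26 were CA repeat windows.

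In the sequence from 250 bases before to 50 bases after each gene's start, whether or not a peak was there, TNGCGTG was found in 1 of the 43 genes, Wnt2b, and in 5.82% of the other protein-coding genes. The absence of the letters from such a window says nothing about the factor.

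Most member windows held repeats. A CA repeat was present in 72 of 128 windows (56.3%, interval 47.6 to 64.5%) and in 61.9% at other genes, and 82.0% of member windows were at least 50% soft-masked, against 84.0%. No member had a peak under 25% soft-masked: 0 of 43 genes, with a background of 1.94%. By the rule that a count of 0 allows up to 3, a share of up to 6.98% is allowed, and the Wilson interval reaches 8.20%. A peak under 50% soft-masked was present at 17 of the 43 (39.5%), against 29.3% of genes of similar length. The lowest masked share was 28.0%, at a peak of Ror1 and one of Wls. The best peak held a CA repeat at 28 of the 35 genes with a peak, and 33 of the 35 had at least 1 such peak, the exceptions being Fzd2 and Fzd8. The same shares were not computed for other genes, so whether these counts are particular to the Wnt genes was not tested. CA windows had a median score of 5.65 and the others 4.98, and for other genes these were 5.65 and 4.65. Within CA windows 5.56% of member peaks were in the top 10% of scores, against 16.2% at other genes.

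**Figure D4:**
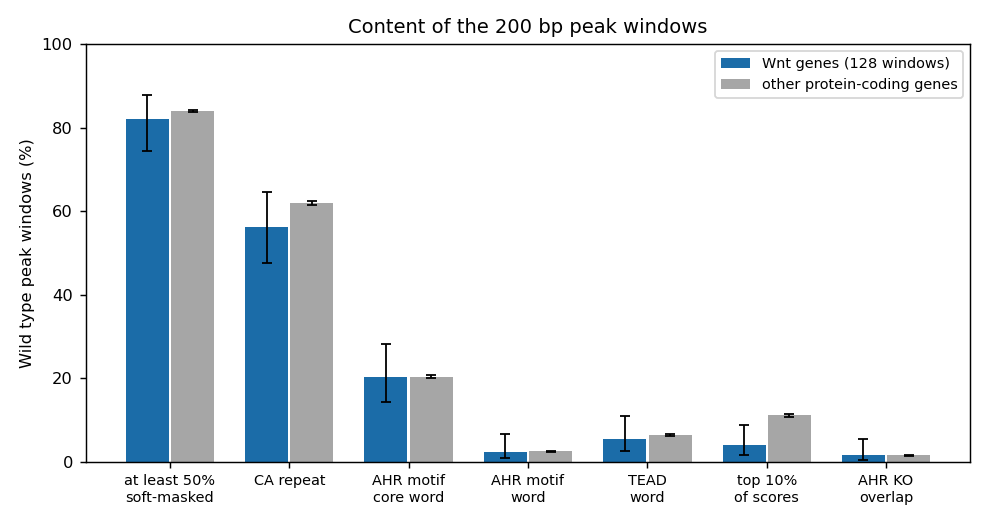
Share of WT peak windows of 200 bp (%) with each property, for the 128 windows at the Wnt genes and for windows at other protein-coding genes, with 95% Wilson intervals as bars. The sets lie close to each other except for the top 10% of scores, at 3.91% against 11.1%.

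The windows without a CA repeat also resembled each other. Of those 56 windows, 54 (96.4%) shared an exact 20-base word with the window of another member peak, and 28 were fully soft-masked. The most common word, agagagagagagagagagag, was in 15 windows of 12 genes, among them Lrp5, Wnt7a and Dkk2, and in 17.0% of all WT windows against 2.72% of KO windows. A word that is not a simple repeat, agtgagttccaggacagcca, was in 12 windows of 9 genes, among them Wnt4, Fzd2 and Sfrp2, and in 4.24% of WT windows. Another, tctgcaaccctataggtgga, was in 7 windows of 6 genes, among them Wnt5a, Fzd8 and Wls, and in 5.05% of WT windows. It can also be read in the printed Fzd3 window. Just 2 windows had neither a CA repeat nor a shared word, 1 of Ror1 with a score of 5.56 and 1 of Fzd8 with a score of 3.85, and both were fully soft-masked.

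Sequence 2 kb to one side of the same peaks differed from the windows. Of 123 such stretches that could be used, 4 (3.25%) held a CA repeat and 11 (8.94%) were at least 50% soft-masked. Of the 119 without a CA repeat, 7 (5.88%) shared a 20-base word with a member peak window. At the other protein-coding genes 89.5% of windows without a CA repeat shared a word with a member window, so the shared words were not particular to the Wnt genes.

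Words for other factors were rare. TGACTCA, the AP-1 word, was in 3 member windows (2.34%) and in 1.49% at other genes. GGAATG, the TEAD word, was in 7 (5.47%) and in 6.37%.

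AHR KO peaks were present at 2 of the 43 genes, 4.65% (interval 1.28 to 15.5%), with a background of 4.47% and 4.07% over genes of similar length. At Wls the KO peak, chr3:159939281-159939797, scored 8.02, ranked 368 of 1931, lay downstream of the gene and was fully soft-masked. It overlapped the WT peak chr3:159939328-159939739 with a score of 5.20. At Sfrp1 the KO peak, chr8:23456108-23456354, scored 6.99, ranked 767, lay downstream and was 91.0% soft-masked, and it overlapped a WT peak 912 bp wide at chr8:23455449-23456360 with a score of 5.92. Neither was the best WT peak of its gene, and none of the 35 best peaks overlapped a KO peak. By peak, 2 of 128 member peaks (1.56%) overlapped a KO peak, as did 1.59% at other genes. The KO list came from 1 library with the lower depth estimated above from a minority of its peaks, so the absence of a KO peak at the other members cannot be told apart from a lack of depth.

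Other genes of the Wnt pathway more often had a high-scoring peak, a difference that was not tested. In a list of 52 that includes R-spondins, Lgr receptors, the destruction complex, Tcf and Lef factors and feedback inhibitors, 45 (86.5%) had a WT peak, against 88.3% of genes of their lengths. A peak in the top 10% was present at 23 of 52 (44.2%, interval 31.6 to 57.7%), against 31.4% of genes of their lengths, and at 4 of the 43. The 52 genes were longer, with a median of 42.5 kb against 20.8 kb. The highest best score among them was 22.3, at Rnf43, a membrane ubiquitin ligase that removes Frizzled from the cell surface. No peak lay within 10 kb of Ctnnb1, which encodes β-catenin, or of Porcn, the enzyme that attaches the lipid to Wnt ligands.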

How the data were processed

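AHR ChIP-seq of WT and AHR KO colon organoids was analysed from 2 peak lists. Per the study's methods and the submitters' processing notes, the authors aligned single-end reads to mm10 with BWA 0.7.15, marked duplicates with Picard 2.1.1 and called peaks against input with MACS2 2.1.1, and HOMER 4.8 is also named. The deposited score is a ratio, the fold enrichment over local background. The methods say that each immunoprecipitate was set against its own input and that peaks of different experiments were intersected with Bedtools. How the single WT list was formed from them is not given in the sources used here. No peak started at 0 and 9 started at 1, so starts were read as counted from 1.

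Peaks were joined to GENCODE protein-coding genes of GRCm38 by overlap, in Python 3.11.15 with numpy 2.4.6, pandas 2.3.3 and SciPy 1.17.1, and the joins were tested on simulated data. Masking, repeats and motif words were read from 200 bp windows around peak midpoints. Each member was set beside the 200 genes nearest in length, 100 shorter and 100 longer, with members left out. Shares carry 95% Wilson intervals, which measure counting error only, and the density ratio an exact Poisson interval. No test was made.

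The members and lists were chosen with earlier results of these data known. Every member is named with its best peak. Full values go to the highest score of each role and to members with no WT peak, a KO peak, a promoter peak, a peak under 25% soft-masked or the motif word. The position and sequence of the Dkk4 peak with the highest score are not reported here. Score limits, shared 20-base words, the stretches 2 kb aside and the Sfrp2 window were added after values were seen. Alternatives covered the flank, top 10% of scores, CA repeats, promoter size, masking limit, motif word, number of similar genes and assignment to the nearest start only.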

Additional observations from a re-analysis of the deposited data

How the results depend on the processing

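Of 53 alternatives, 39 left the value within its interval and 14 moved it. The share with a WT peak was 53.5% in gene bodies alone (similar length 51.3%), 60.5% with 2 kb flanks (58.6%), 100% with 50 kb flanks (97.9%) and 53.5% without CA repeat peaks (54.7%). With each peak given to the nearest protein-coding start only it was 79.1%, while that of genes of similar length fell from 79.4% to 68.7%. With peaks in the top 10% of scores only, the share with a WT peak was 9.30%, below the 23.4% of genes of similar length. The share above the similar-length median was also 9.30%, which restates the first value, since a gene without such a peak could not be above it. In the same setting the density ratio turned from 1.07 to 0.375 (interval 0.122 to 0.876), and the motif word and promoter shares were both 0% (similar length 0.791% and 1.78%). In gene bodies alone the share with a KO peak was 0% (2.64%), since both KO peaks lie downstream. A masking limit of 50% gave 39.5% (similar length 29.3%), the core word GCGTG 39.5% (38.2%), promoters from 2 kb before to 500 bp after the start 23.3% (19.7%), and promoters without CA repeats 0% (3.71%). For each share of 0% the members' interval reached 8.20%. No paired analysis was possible because neither list gives separate values for the cultures, and for the same reason no culture could be left out in turn. The KO list rests on 1 library, whose lower depth was estimated only from a minority of its peaks, and the WT list gives no spread between cultures.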
